A study of Homo sapiens with 10 samples.

Results

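The Fos, Jun and NR4A transcription factors form 10 of the 34567 genes in a bulk RNA-seq table of 2 human glioma cell lines, SNB19 and U87, both established glioblastoma lines. The members were taken by gene symbol and were the 4 Fos genes (FOS, FOSB, FOSL1, FOSL2), the 3 Jun genes (JUN, JUNB, JUND) and the 3 NR4A genes (NR4A1, NR4A2, NR4A3). The set was chosen on 1 measured pattern, the higher NR4A3 counts in both perturbed lines, so the values of NR4A3 are given as a description with no test. The other 9 members were measured in the contrasts that led to this choice, and counts of how many of them changed are therefore no independent evidence about the set. The study silenced or overexpressed MEOX2, a homeobox transcription factor, and asked how gene expression responded.

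SNB19 cells were transfected by lipofection with a scramble siRNA (NC, 3 libraries) or with an siRNA against MEOX2 (siMEOX2, 3 libraries). U87 cells were given lentivirus that was empty (EV, 2 libraries) or carried MEOX2 (OE, 2 libraries), and the methods describe a stable line selected with puromycin. All cells grew in DMEM with fetal bovine serum. The knockdown was transient and the overexpression stable, and the labels do not say which siRNA sequence was used, when RNA was taken, or whether replicates were separate cultures, so p-values measure the spread between these libraries, which may be technical. The treatment labels of 3 of the 4 U87 libraries name MEOX3, MEOX4 or MEOX5 in place of MEOX2, and the title of OE replicate 1 ends with the name of OE replicate 2. MEOX2 counts followed the group names in the titles. They were 249, 224 and 275 in NC and 54, 40 and 49 in siMEOX2. They were 0 in both EV libraries, where up to 3 counts each would be compatible with a count of 0, and 4999 and 5308 in OE.

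AP-1 is a dimer of a Jun protein with a Fos, Jun or related bZIP protein, and it binds promoters and enhancers of genes for growth, migration and inflammation. FOS, FOSB, JUN, JUNB and the orphan nuclear receptors NR4A1, NR4A2 and NR4A3 are immediate early genes, which serum, stress and cAMP switch on within minutes through factors such as SRF and CREB without new protein synthesis. FOSL1 and FOSL2 rise later and for longer, JUND is expressed in resting cells, and FOSL1 and JUN are known in glioblastoma for their place in the mesenchymal state.

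The promoters of 4 immediate early members are shown because their transcripts were higher in at least one perturbed line and because they differ in the core of the cAMP response element (CRE), TGACG, the letters that CREB family factors read. The sequences come from the RefSeq promoter table for GRCh38.p14, which held 8 of the 10 members and not FOSL1 or NR4A2. Each is written 5′ to 3′ on the plus strand, begins at position -130 from the RefSeq start and stops before the annotated transcript, and capitals mark TGACG on either strand.
NR4A3, chr9:99821755-99821854: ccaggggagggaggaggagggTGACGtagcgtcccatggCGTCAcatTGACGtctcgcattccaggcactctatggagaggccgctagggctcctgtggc
FOSB, chr19:45467866-45467994: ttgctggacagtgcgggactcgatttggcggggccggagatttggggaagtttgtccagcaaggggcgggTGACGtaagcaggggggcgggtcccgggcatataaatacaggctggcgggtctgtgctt
FOS, chr14:75278698-75278773: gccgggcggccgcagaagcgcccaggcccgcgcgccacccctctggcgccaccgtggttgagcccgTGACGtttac
NR4A1, chr12:52022702-52022831: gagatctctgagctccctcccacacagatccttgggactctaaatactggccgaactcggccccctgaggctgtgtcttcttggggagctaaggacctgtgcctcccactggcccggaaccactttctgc

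Across 35116 RefSeq promoter windows of 300 bases, 24.6% held TGACG on at least one strand and 0.313% held it 4 or more times. Each window ran from 250 bases before the RefSeq start to 50 bases after it. The NR4A3 window held it 4 times, at positions -109, -91, -83 and -25, of which the first 3 lie in the stretch shown. FOS held it once at -64 and FOSB once at -60, and neither window of NR4A1 held it. JUN and JUNB held it once each, FOSL2 2 times and JUND 3 times, with the full palindromic CRE among the JUND matches and overlapping 2 of them. The AP-1 site, TGACTCA or TGAGTCA, lay in 4.95% of windows and among the members only in that of FOSL2. The CArG box of SRF (1.29% of windows) and the homeobox core TAATTA (4.84%) were in no member's window. The windows of NR4A1 began at 52022582 and 52037465, and the gene runs to 52059507. Sites outside the members' windows, such as those farther upstream or at other starts within a gene, were not searched. These are matches of letters and say nothing about binding in these cells.

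Library totals were 12533775 to 16560324 counts. EV replicate 1 stood apart from the other libraries. Ribosomal protein genes took 14.8% of its counts against 4.61% to 7.49% elsewhere, and the count-weighted mean gene length was 4774 bases against 5984 to 6404. Per degree of freedom, the chi-square of its counts against EV replicate 2 was 280, while the other replicate pairs gave 2.06 to 6.56. Relative to EV replicate 2, genes under 2000 bases had a median log2 ratio of 0.78 and longer genes -0.12. Because of this library the U87 fold changes of the members are also given without it. Vimentin and CD44, which glioma lines express, were abundant in both lines, but the astrocyte markers GFAP and S100B were at most 4.58 and 0.304 CPM (read counts scaled to library size with TMM factors), and SOX2 was at most 0.249 CPM in U87. The leukocyte markers PTPRC and CD68 were at most 0.232 CPM. Other markers of other cell types reached more. In NC, KRT18 reached 88.3 CPM, PECAM1 33.6 CPM and CDH5 4.37 CPM. SNAP25 reached 11.4 CPM in EV and MBP 10.7 CPM in OE.

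In SNB19 cells all 3 NR4A receptors were higher after MEOX2 silencing, and the libraries of the 2 groups did not overlap for any of them. In bulk RNA, more RNA per cell and more cells that express a gene cannot be told apart. NR4A3 (chr9:99821855-99866891, plus strand), a ligand-independent nuclear receptor, had 8, 4 and 12 counts in NC and 41, 55 and 34 in siMEOX2. In CPM these were 0.462, 0.277 and 0.729 against 2.38, 3.39 and 2.13. The log2 fold change was 2.40 ± 0.358 (SE), a 5.29-fold difference on few reads. It ranged from 2.15 to 2.79 as single libraries were left out.

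NR4A1 (Nur77, chr12:52022832-52059507, plus strand), which acts in apoptosis and metabolism, was the most abundant of the 3 receptors in SNB19. Its levels were 16.99, 16.9 and 16.3 CPM in NC and 58.4, 39.8 and 34.6 CPM in siMEOX2. NR4A1 rose by a log2 fold change of 1.42 ± 0.134 (SE, adjusted p = 1.70e-08, edgeR quasi-likelihood test). siMEOX2 replicate 1 was the highest library, and the other two were also above all controls. NR4A2 (Nurr1, chr2:156324432-156342348, minus strand), the receptor of dopaminergic neuron development, was at 1.79, 2.01 and 1.82 CPM in NC and 5.28, 5.43 and 5.39 CPM in siMEOX2. It rose by 1.53 ± 0.193 (adjusted p = 1.02e-06), with hardly any spread within either group.

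Among the Fos genes of SNB19, those of low abundance changed most. FOS (chr14:75278774-75282230, plus strand), the prototype serum-induced partner of Jun, rose from 2.31, 2.84 and 2.06 CPM in NC to 6.09, 6.72 and 5.77 CPM in siMEOX2. The log2 fold change was 1.38 ± 0.185 (adjusted p = 2.17e-06). FOSB (chr19:45467995-45475179, plus strand), which also encodes a truncated form without the activation domain, rose from 4.28, 5.41 and 5.10 CPM to 11.8, 7.83 and 8.40 CPM. Its log2 fold change was 0.95 ± 0.166 (adjusted p = 6.15e-05), and siMEOX2 replicate 1 was again the highest, as for NR4A1. FOSL1 (Fra-1, chr11:65892049-65900573, minus strand) rose less, from 66.7–73.3 to 84.9–88.6 CPM, a log2 fold change of 0.31 ± 0.0588 (adjusted p = 0.000144). FOSL2 (Fra-2, chr2:28392448-28417312, plus strand) moved the other way. It fell from 286–296 to 223–270 CPM, a log2 fold change of -0.22 ± 0.0591 (adjusted p = 0.00341).

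The Jun genes of SNB19 shifted in both directions. JUND (chr19:18279760-18281622, minus strand), known as a brake on proliferation in several cell types, fell from 153, 162 and 142 CPM in NC to 108, 97.8 and 92.8 CPM in siMEOX2. Its log2 fold change was -0.60 ± 0.0619 (adjusted p = 6.48e-08), and every siMEOX2 library lay below every NC library. JUNB (chr19:12791496-12793315, plus strand), a weaker activator than JUN that can oppose it, rose from 164–176 to 197–218 CPM, by 0.31 ± 0.0530 on the log2 scale (adjusted p = 4.06e-05). HOOK2, on the opposite strand, overlaps JUNB and had at most 633 counts in any library, and the library kit does not mark strand, so reads of the overlap cannot be told apart. JUN (chr1:58780788-58784327, minus strand), the strongest activator of the family, had 168, 184 and 165 CPM in NC and 202, 211 and 181 CPM in siMEOX2. It rose by 0.22 ± 0.0601 (adjusted p = 0.00457), but siMEOX2 replicate 3 lay below NC replicate 2, so the groups overlapped in CPM.

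Counted over the 9 members other than NR4A3, 7 rose and 2 fell in SNB19. Over all 15525 genes tested, 27.4% rose and 28.5% fell, and nothing is read from the members' count since the same contrast led to their choice. All 9 calls held with each library left out in turn. With all 10 libraries in one fit, 5 of the 9 were called (FOS, FOSB, NR4A1 and NR4A2 higher, JUND lower). In that fit 1210 of all 17312 genes tested were called higher and 1515 lower. The calls of FOSL1, FOSL2, JUN and JUNB, whose log2 fold changes were small, were lost. By limma on log2(FPKM + 1), only the call of FOSL2 (-0.15) was lost.

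**Figure D1:**
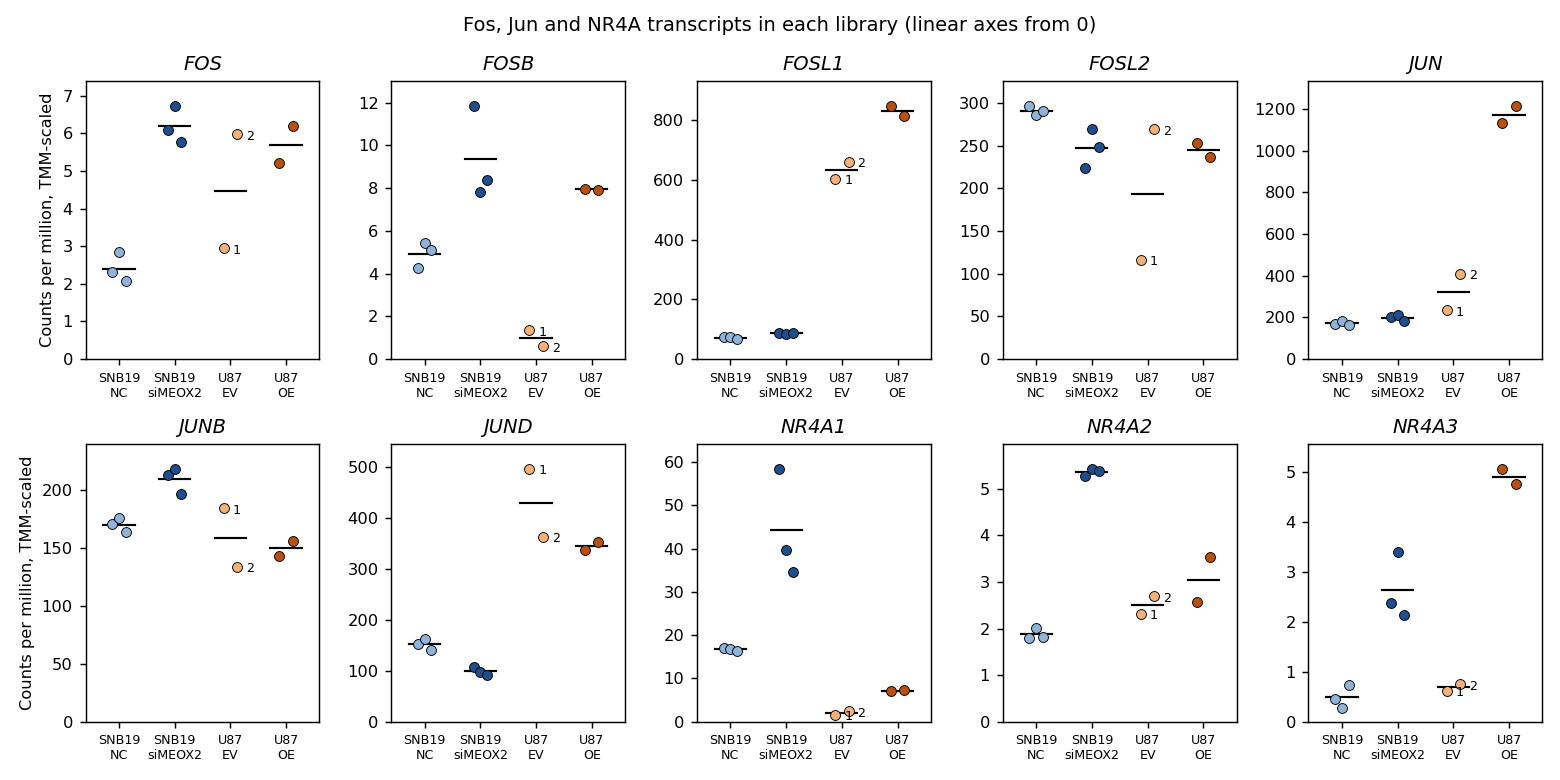
CPM after TMM scaling (vertical axes, linear and from 0, a scale of its own for each gene) of the 10 factors in each library. Points are libraries, horizontal lines are group means, and 1 and 2 mark the 2 EV libraries. For NR4A3 the siMEOX2 libraries at 2.13 to 3.39 and the OE libraries at 4.75 and 5.06 lie above all controls, while for FOS, FOSL2 and JUN the 2 EV libraries lie far apart.

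In U87 cells overexpressing MEOX2, NR4A3, NR4A1, FOSB and JUN were several-fold above both controls, while FOS, FOSL2, JUNB and NR4A2 overlapped with them. NR4A3 had 7 and 10 counts in EV and 61 and 66 in OE, or 0.624 and 0.748 against 5.06 and 4.75 CPM. Its log2 fold change was 2.80 ± 0.433 (SE, n = 2 against 2), with 2.69 and 2.97 when EV replicate 1 or EV replicate 2 was left out. The choice of NR4A3 rests on this difference too, and it carries no test.

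NR4A1 had 18 and 32 counts in EV and 86 and 101 in OE. In CPM these were 1.60 and 2.39 against 7.13 and 7.27, a log2 fold change of 1.83 ± 0.394 (adjusted p = 0.172) that was 1.58 without EV replicate 1 and 2.18 without EV replicate 2. The OE libraries agreed closely and both lay above both EV libraries. NR4A2, at 2.32 and 2.69 CPM in EV and 2.57 and 3.53 in OE, had a log2 fold change of 0.27 ± 0.419 (adjusted p = 0.717), 0.18 without EV replicate 1, and overlapping groups.

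FOSB had the largest fold change of the 10 in U87 with both EV libraries as control. With EV replicate 1 alone as control that of NR4A3 was larger (log2 fold change 2.97 against 2.58). It had 15 and 8 counts in EV and 96 and 110 in OE, or 1.34 and 0.598 against 7.96 and 7.92 CPM. The log2 fold change was 3.03 ± 0.523 (adjusted p = 0.153), and 3.70 or 2.58 with EV replicate 2 or 1 alone as control. FOSL1 was at 605 and 661 CPM in EV and 847 and 816 CPM in OE, a log2 fold change of 0.38 ± 0.298 (adjusted p = 0.486) that was 0.32 without EV replicate 1 and 0.48 without EV replicate 2. FOS and FOSL2 depended on the control library. FOS was at 2.94 CPM in EV replicate 1 and 5.98 CPM in EV replicate 2, with OE at 5.22 and 6.19 CPM, so that its log2 fold change of 0.34 ± 0.468 (adjusted p = 0.684) became -0.068 without EV replicate 1 and 0.97 without EV replicate 2. FOSL2 was at 117 and 269 CPM in EV and 253 and 236 CPM in OE, and its log2 fold change of 0.33 ± 0.470 (adjusted p = 0.691) became -0.14 and 1.09.

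JUN showed the largest difference among the abundant factors of U87. It had 2620 and 5457 counts in EV and 13674 and 16850 in OE, or 234 and 408 against 1133 and 1213 CPM. The log2 fold change was 1.86 ± 0.407 (adjusted p = 0.174), with 1.52 without EV replicate 1 and 2.35 without EV replicate 2, so both OE libraries were well above either control. JUND was at 497 and 363 CPM in EV and 337 and 354 CPM in OE, below both controls, with a log2 fold change of -0.33 ± 0.317 (adjusted p = 0.567) that shrank to -0.08 without EV replicate 1. JUNB was at 184 and 134 CPM in EV and 143 and 156 CPM in OE, a log2 fold change of -0.10 ± 0.303 (adjusted p = 0.858) that became 0.16 without EV replicate 1.

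None of the 9 members passed the edgeR test in the 4 U87 libraries, nor did any of the 14180 genes tested (0.0%), although 2643 genes had an unadjusted p under 0.05 and DESeq2 called 321 genes higher and 618 lower, FOSB and JUN among them. The OE libraries were both above both EV libraries for 4 of the 9 members (FOSB, FOSL1, JUN, NR4A1) and for 29.9% of all genes. They were both below for JUND and for 28.2% of all genes. With the spread taken from all 10 libraries, FOSB, FOSL1, JUN and NR4A1 were called higher, against 11.3% of all genes. The same 4 were called without EV replicate 1, against 23.3%, with the lone control assumed to vary as the OE libraries do. With EV replicate 1 as the lone control, 6 members (also FOS and FOSL2) were called higher and 2 (JUNB and JUND) lower, against 36.0% and 35.2% of all genes. By the study's own threshold (unadjusted p under 0.05 and an absolute log2 fold change above 1) FOSB, JUN and NR4A1 passed, against 6.19% of all genes called higher. The transcript lengths behind the FPKM values (fragments per kilobase, scaled to library depth) are 1820 to 1887 bases for JUNB, JUND and FOSL1 and 3238 to 7295 bases for the other 7. JUNB and JUND were higher, and FOS, FOSL2 and JUN lower, in EV replicate 1 than in EV replicate 2, but FOSL1 differed little and FOSB, of 5553 bases, was higher. The part of gene length in these values was not tested.

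**Figure D2:**
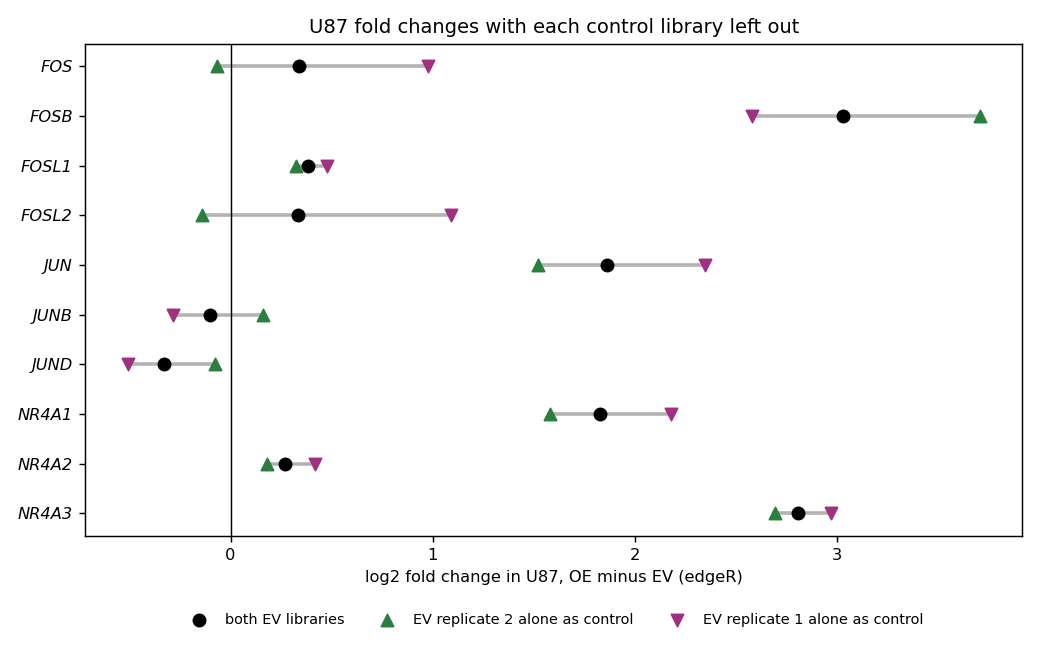
Log2 fold change in U87, OE minus EV (horizontal axis), of each factor with both EV libraries (circles) and with either EV library alone (triangles), the grey bars joining the latter. NR4A3, FOSB, JUN and NR4A1 stay above 1.5 with either control, whereas FOS, FOSL2 and JUNB lie on both sides of 0.

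The change differed between the 2 experiments for 3 of the 9 members when the difference itself was tested in one fit of all 10 libraries, and 15.7% of all 17312 genes differed. JUN changed more in U87, by 1.67 ± 0.301 on the log2 scale (SE, adjusted p = 0.00792). FOSB also changed more in U87, by 2.13 ± 0.442 (adjusted p = 0.0141). NR4A2 changed more in SNB19, with a difference of -1.23 ± 0.311 (adjusted p = 0.0293). For FOS the difference was -1.02 ± 0.415 (adjusted p = 0.125). For NR4A1 it was 0.43 ± 0.359 (adjusted p = 0.437) and for FOSL1 0.10 ± 0.163 (adjusted p = 0.721). For FOSL2 it was 0.58 ± 0.397 (adjusted p = 0.343), for JUNB -0.39 ± 0.213 (adjusted p = 0.239) and for JUND 0.30 ± 0.219 (adjusted p = 0.375). For NR4A3, with no test, it was 0.42 ± 0.565. Cell line, direction of the MEOX2 change and siRNA or lentivirus cannot be told apart in this difference. The NR4A2 call was lost without any one of the SNB19 libraries or OE replicate 1 (differences of -1.28 to -1.02), and the FOSB call without either OE library (2.13 and 2.14). Without EV replicate 1, FOS (-1.39) and JUND (0.58) were also called, and without EV replicate 2, FOSL2 (1.33) and JUNB (-0.58) were. With a block for replicate number only JUN was called.

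**Figure D3:**
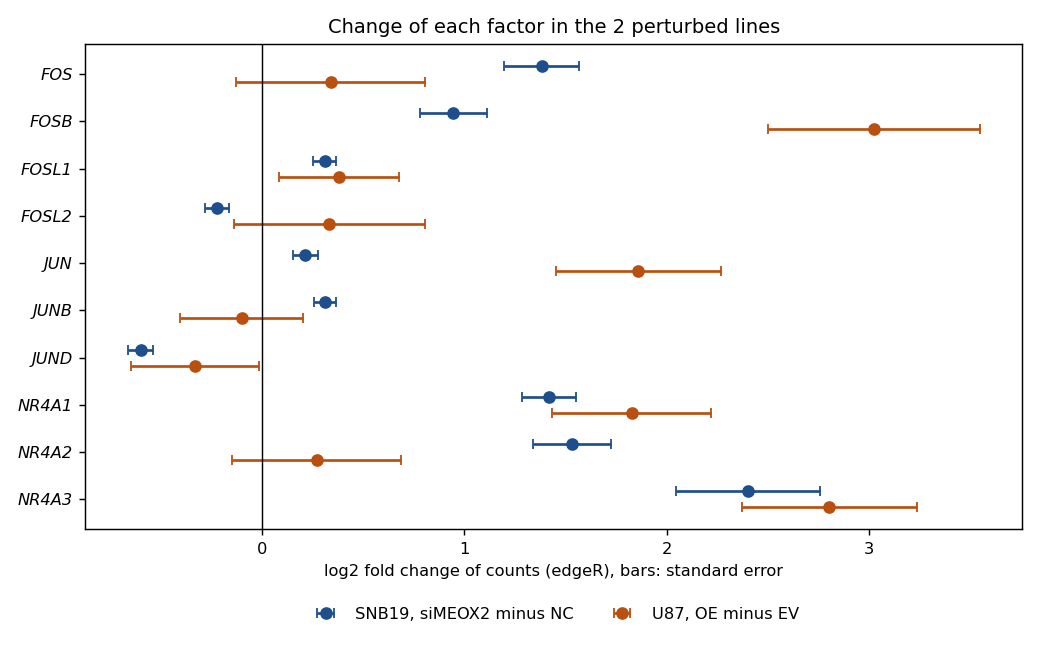
Log2 fold change of counts with its standard error (horizontal axis) for each factor after MEOX2 silencing in SNB19 (blue, 3 against 3 libraries) and MEOX2 overexpression in U87 (orange, 2 against 2). NR4A3 and NR4A1 are above 1 in both lines, NR4A2 and FOS have the larger value in SNB19 and FOSB and JUN the larger value in U87.

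The control cells already differed in which factor was most abundant. On the FPKM scale, which allows genes to be compared, FOSL1 was at 37.5 to 40.8 in NC and at 222 and 333 in EV. JUND was at 80.6 to 91.6 in NC and at 185 and 186 in EV. NR4A1 was at 2.37 to 2.44 in NC and at 0.153 and 0.312 in EV. Tested on counts, FOSL1 was lower in SNB19 than in U87 by -3.16 ± 0.118 on the log2 scale (adjusted p = 1.72e-07) and JUND by -1.50 ± 0.153 (adjusted p = 4.01e-05). JUN (-0.90 ± 0.209, adjusted p = 0.00530) and FOS (-0.90 ± 0.300, adjusted p = 0.0282) were also lower in SNB19. NR4A1 was higher in SNB19 by 3.05 ± 0.283 (adjusted p = 2.24e-05) and FOSB by 2.37 ± 0.352 (adjusted p = 0.000437). FOSL2 (0.59 ± 0.285, adjusted p = 0.103), NR4A2 (-0.42 ± 0.227, adjusted p = 0.140) and JUNB (0.10 ± 0.151, adjusted p = 0.598) did not pass. Thus 2 of the 9 members were higher in control SNB19, against 28.1% of all genes, and 4 were lower, against 28.8%. The FOS call was lost without EV replicate 2 (log2 fold change -0.33) and without NC replicate 1 (-0.87) or 3 (-0.80), and with the control libraries alone in the fit (-0.90). By limma on log2(FPKM + 1), FOS (-0.25) and JUN (-0.46) were not called and FOSL2 (1.04) and JUNB (0.48) were. FOSL2 was called without EV replicate 2 (1.29) and JUNB without EV replicate 1 (0.34). The line cannot be told apart from the scramble siRNA and the empty lentivirus.

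In order of FPKM, NC cells had JUNB first (98.4 ± 3.32, mean ± SD, n = 3), followed by JUND (85.9 ± 5.48), JUN (51.2 ± 2.89), FOSL2 (42.8 ± 0.648) and FOSL1 (39.4 ± 1.74), and no neighbours among these overlapped. NR4A1 followed at 2.41, then FOSB at 0.934 and FOS at 0.782, which overlapped, NR4A2 at 0.497 and NR4A3 at 0.0817. In siMEOX2 cells JUNB stayed first at 129 ± 6.38, and JUN (62.6 ± 4.82) and JUND (59.7 ± 3.55) overlapped. In EV cells FOSL1 was first (278 ± 78.4, n = 2) and JUND second (185 ± 0.306), while JUN (77.7 ± 45.1) and JUNB (70.1 ± 0.334) overlapped. These FPKM carry no TMM factor, which was 0.695 in EV replicate 1 and 0.952 in EV replicate 2. The small SDs of JUND and JUNB therefore do not mean that the EV libraries were alike. In CPM, JUND was at 497 and 363 and JUNB at 184 and 134. In OE cells FOSL1 (421 ± 15.3) was followed by JUN (317 ± 12.02) and then JUND (177 ± 4.11). NR4A3 (0.742 ± 0.0401) and NR4A2 (0.734 ± 0.156) overlapped there, at the lower end.

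The make-up of each family's transcript pool is a description of the same FPKM values. FOSL1 and FOSL2 held nearly all Fos FPKM in every library. FOSL1 took 45.6% to 48.1% of it in NC and 52.2% to 56.7% in siMEOX2, but 89.9% to 94.8% in U87. FOS and FOSB together stayed a small fraction, FOS at 0.823% to 1.09% in NC and 2.10% to 2.41% in siMEOX2. In the Jun pool, JUND held 35.7% to 36.9% in NC and 22.6% to 24.9% in siMEOX2, where JUNB held 50.5% to 51.8%. JUN took 15.2% and 30.03% of the Jun pool in EV and 55.2% and 55.4% in OE. The NR4A pool of SNB19 was mostly NR4A1, at 79.5% to 81.6% in NC and 73.7% to 82.4% in siMEOX2. In U87 NR4A2 led in EV, with 64.7% and 60.3%, and in OE NR4A1 (40.3% and 37.8%) was followed by NR4A3 (33.0% and 28.5%) and NR4A2 (26.7% and 33.7%), the order of the last 2 differing between libraries. The summed NR4A FPKM was 2.98 to 3.02 in NC and 7.29 to 10.7 in siMEOX2, and 0.627 and 1.07 in EV against 2.33 and 2.50 in OE. These sums carry no TMM factor, which was 0.695 in EV replicate 1 and 0.950 to 0.964 in the other U87 libraries.

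Across the 10 libraries, with log2(CPM + 1) centred on each line's mean, the genes with the profile most like that of NR4A3 among 14442 were AC023906.5 (Pearson r = 0.991), WDR75 (0.988), LRIF1 (0.987), RNF216P1 (0.985) and ZNF391 (0.985). Of the members, NR4A1 was nearest (r = 0.937, rank 141), followed by FOSL1 (0.917, rank 248) and FOSB (0.890, rank 390). JUN (0.789), FOS (0.734) and NR4A2 (0.721) came later. FOSL2 (0.198) and JUNB (0.336) were little alike it, and JUND went against it (-0.817). The points share 2 controls and 2 contrasts, and these r values, over 10 libraries, describe the same differences as above.

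Genes linked to these factors were taken from lists by role, and their counts stand beside the shares over all genes with nothing called particular to a list. Genes named for having both OE libraries below both EV libraries were picked after their values were seen. Of 9 tested AP-1 partners outside the Fos and Jun families, 6 rose and none fell in SNB19 (27.4% and 28.5% of all genes), with a median log2 fold change of 0.43 (all genes 0.01). They included ATF3, a stress-induced repressor (1.41, adjusted p = 1.48e-10), MAFF, a small Maf protein (1.69, adjusted p = 1.04e-12), and JDP2, a Jun dimerization partner (0.87, adjusted p = 2.37e-07). In U87 none of 10 passed, with a median of 1.12 (all genes -0.06), and 7 had both OE libraries above both EV libraries (29.9% of all genes) and 1, BATF3 (-1.59), had both below (28.2%). ATF3 was at 2.59, MAFF at 1.95 and JDP2 at 0.96 there. Without EV replicate 1, 7 of the 10 were called higher (23.3% of all genes).

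Of 24 other serum- or stress-induced immediate early genes, 18 rose and 4 fell in SNB19, against 27.4% and 28.5% of all genes, with a median of 0.56. CCN1 (CYR61 in the table), a secreted matrix protein, was at 1.92 (adjusted p = 6.34e-16), KLF2 at 1.86 (adjusted p = 8.78e-13) and NFKBIZ, a nuclear IκB protein, at 1.78 (adjusted p = 4.12e-13). In U87, where none of 23 passed, the median was 0.96, and 17 had both OE libraries above both EV libraries and 2, IER2 (-1.57) and BTG2 (-0.087), had both below, against 29.9% and 28.2% of all genes. CCN1 was at 1.01, KLF2 at 1.34 and NFKBIZ at 2.33, and without EV replicate 1 the median of the list was 0.77 (all genes 0.01).

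Of 10 tested cAMP- and CREB-responsive genes, 2 rose and 2 fell in SNB19, against 27.4% and 28.5% of all genes, with a median of -0.03. RGS2 (0.87, adjusted p = 0.0141) and PDE4D (1.49, adjusted p = 7.06e-11), which curb G protein and cAMP signals, rose, and VGF, a neuropeptide precursor, was at -0.82 (adjusted p = 1.41e-05). In U87 none of 10 passed, and the median was 0.36, or 0.74 without EV replicate 1. Both OE libraries were above both EV libraries for 5 of them (29.9% of all genes) and below for none (28.2%). RGS2 was at 0.43, PDE4D at 0.78 and VGF at 0.08.

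Among 15 kinases and factors that act upstream of the members, 2 rose and 7 fell in SNB19, against 27.4% and 28.5% of all genes, with a median of -0.13. MAPK3 (ERK1) was at -0.66 (adjusted p = 3.67e-07), MAP2K4, which activates JNK, at -0.50 (adjusted p = 1.94e-06) and MAPK8 (JNK1), which phosphorylates JUN, at -0.44 (adjusted p = 0.000170). These are transcript levels and not kinase activity. In U87 none passed, and the median of 0.40 became 0.07 without EV replicate 1. Both OE libraries were above both EV libraries for 7 and below for 2, MAPK3 and RPS6KA1, against 29.9% and 28.2% of all genes. MAPK3 was at -0.99, MAP2K4 at -0.05 and MAPK8 at 0.64.

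All 15 tested textbook AP-1 target genes were called in SNB19, 6 higher and 9 lower, against 27.4% and 28.5% of all genes, with a median of -0.43. The cytokines IL6 (2.86, adjusted p = 3.97e-11) and CXCL8 (2.35, adjusted p = 4.17e-10) rose, and MMP9, a gelatinase, fell (-3.20, adjusted p = 1.04e-12). In U87 none of 15 passed, the median was 0.99, and 10 had both OE libraries above both EV libraries and 2, PLAU (-0.89) and CD44 (-0.21), had both below, against 29.9% and 28.2% of all genes. Without EV replicate 1 the median of the list was 1.17 (all genes 0.01). CXCL8 was at 4.28 and IL6 at 1.37, while MMP9 was too low to be tested. The largest log2 fold changes of the list in U87 were those of MMP3 (6.96) and MMP1 (5.85), picked after their values were seen. MMP3 was at 6.24 and 5.16 CPM in EV and 711 and 727 CPM in OE. MMP1 was at 0.535 and 0.822 CPM in EV and 35.1 and 45.9 CPM in OE. Of the retinoid X receptors that pair with NR4A1 and NR4A2, RXRA fell (-0.38, adjusted p = 4.31e-06) and RXRB rose (0.37, adjusted p = 0.000106) in SNB19, and in U87 they were at -0.19 and 0.03. The dopaminergic targets TH and SLC18A2 were too low to be tested in both lines.

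**Figure D4:**
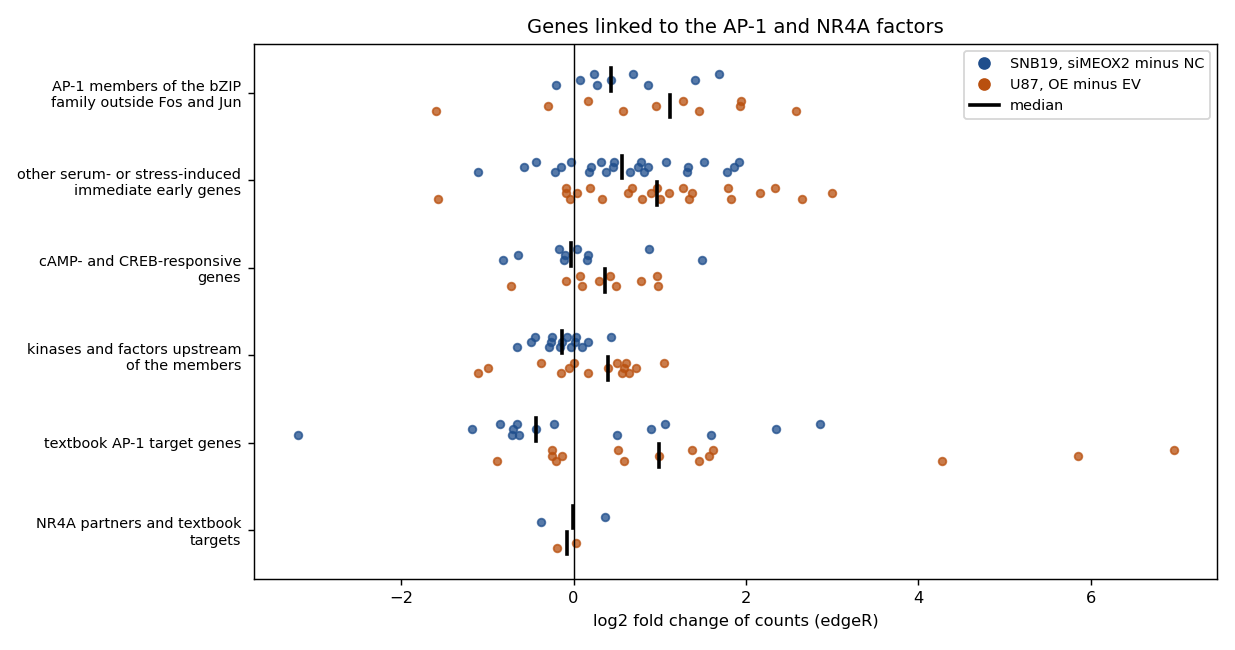
Log2 fold change of counts (horizontal axis) of the tested genes in each list by role, after MEOX2 silencing in SNB19 (blue) and overexpression in U87 (orange), with black bars at the medians. The AP-1 partners and the immediate early genes lie mostly to the right of 0 in both lines (medians 0.43 and 1.12, and 0.56 and 0.96), and the AP-1 targets are split in SNB19.

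Other lists moved beside the members, and their counts in SNB19 stand beside 27.4% of all genes higher and 28.5% lower. Of 7 markers of glioblastoma and the astrocyte lineage, 5 fell in SNB19 (GFAP, NES, VIM, CD44 and SOX2) and OLIG2 rose, and their summed level was 1152 to 1161 CPM in NC and 538 to 573 CPM in siMEOX2. In U87 that sum was 2111 and 5979 CPM in EV and 1366 and 1375 CPM in OE, with none passing the test. The summed level of 6 stress genes (ATF3, also counted among the AP-1 partners, DDIT3, TRIB3, HSPA1A, HSPA1B, GADD45A) was 189 to 201 CPM in NC and 476 to 539 CPM in siMEOX2, where 4 of the 6 rose and HSPA1B fell. TRIB3 had the most CPM of these genes in siMEOX2, with a mean of 70.6 CPM in NC and 341 CPM in siMEOX2. GADD45A rose by a log2 fold change of 0.35. In U87 the summed stress level was 416 and 648 CPM in EV and 910 and 996 CPM in OE. The summed level of 7 interferon-response genes was 120 to 129 CPM in NC and 81.0 to 93.1 CPM in siMEOX2, with 1 of them higher and 4 lower, and 131 and 290 CPM in EV against 200 and 224 CPM in OE, while IFNB1 was at most 0.0617 CPM in any library. Of 9 markers of other cell types, 5 fell in SNB19 and none rose, from a sum of 125 to 128 CPM to 77.8 to 92.0 CPM. The keratin KRT18 was most of that sum but fell little (log2 fold change -0.18, mean 85.8 CPM in NC and 75.1 CPM in siMEOX2). PECAM1 (-2.62, 31.5 and 5.06 CPM) and CDH5 (-4.75, 4.02 and 0.137 CPM) fell by larger folds. In U87 the sum of the 9 was 21.1 and 21.8 CPM in EV and 14.3 and 16.3 CPM in OE. The part of these genes in the members' values was not tested.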

How the data were processed

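Poly-A RNA-seq libraries of 10 samples (NEBNext Ultra, Illumina paired reads) were analysed. The submitters' processing notes name HISAT2, HTSeq 0.11.2, DESeq2 1.26.0 and GRCh38. The annotation release and the strand setting are not given in the sources used here. The authors deposited raw counts per gene, and beside them FPKM per gene, computed in a way that is not described. To within a relative difference of 3.29e-07, these FPKM equal counts divided by a fixed length per gene and the library total. They therefore carry no TMM factor. Columns with sample names in the titles were matched to groups, and the 2 label discrepancies in U87 were resolved by the first part of each title.

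The members and the gene lists were chosen with earlier results of these data known. Counts were tested with edgeR 4.0.16 (R 4.3.3) by the quasi-likelihood test, with TMM scaling, filterByExpr, and Benjamini-Hochberg adjustment over all genes tested, and a gene was called at an adjusted p under 0.05. Each line was fitted alone, and the difference between the lines and the comparison of control cells used all 10 libraries. Totals of 12533775 to 16560324 counts limit the precision for the low members, and counting error is only part of the spread. CPM values are scaled over all 10 libraries. Levels between genes were compared only on the authors' FPKM. From each list, up to 3 called genes with the largest absolute log2 fold change and a mean of at least 1 CPM in the line were named, and the 5 genes nearest to NR4A3 by Pearson r. Alternatives were DESeq2 1.42.0, limma 3.58.1 on log2(FPKM + 1), other scalings and filters, a replicate block, the study's own threshold, and leaving out each library. The scripts were tested on simulated counts. Same-numbered deviations of the SNB19 libraries had r of -0.0358 to 0.0834, which cannot show whether replicate numbers paired them. Gene coordinates are from GENCODE 29 on GRCh38. Promoters are from RefSeq. No protein sequences were used. POMC was not analysed here.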

Additional observations from a re-analysis of the deposited data

Results flagged for a closer look

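The effects of MEOX2 overexpression in U87 and of MEOX2 silencing in SNB19 were compared in the fit of all 10 libraries (edgeR quasi-likelihood test of the difference, U87 minus SNB19, log2). This look took in the 9 tested members and the linked genes named by the rule of up to 3 called genes per list. Of these, 7 differed. Among the factors themselves the difference was 2.13 for FOSB (adjusted p = 0.0141), 1.67 for JUN (adjusted p = 0.00792) and -1.23 for NR4A2 (adjusted p = 0.0293). Over all alternatives the adjusted p of FOSB ranged from 3.43e-05 to 0.0667, that of JUN from 5.14e-16 to 0.0433 and that of NR4A2 from 0.0127 to 0.115.

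Among the linked genes named by that rule, CXCL8 differed by 1.95 (adjusted p = 0.00669), ATF3 by 1.201 (adjusted p = 0.00797), MAPK8 by 1.11 (adjusted p = 0.0111) and CCN1 by -0.88 (adjusted p = 0.0137). Linked genes named after their values were seen were outside that count. MMP1 (9.04, adjusted p = 0.000330), MMP3 (6.09, adjusted p = 6.54e-06), CD44 (1.00, adjusted p = 0.00511), RPS6KA1 (-1.11, adjusted p = 0.00458) and IER2 (-2.01, adjusted p = 0.0445) also differed. BATF3, BTG2 and PLAU did not pass. FOSB, JUN, ATF3 and CXCL8 had positive fold changes in both lines, MAPK8 had a negative one in SNB19 and a positive one in U87, and CCN1 and NR4A2 had the larger value in SNB19. Cell line, siRNA or lentivirus, and the direction of the MEOX2 change cannot be told apart in these differences.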

How the results depend on the processing

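In SNB19, of the values of the 9 tested members recomputed under the alternatives, 124 kept their direction and their side of the threshold, 11 kept only the direction, and none reversed. With all 10 libraries in one fit, 5 members were called, and 1210 higher and 1515 lower genes of 17312. By the study's threshold 3 members were called, and 866 higher and 803 lower genes of 15525. Without each library in turn the calls ranged over 9 to 9 members, 3703 to 4440 higher and 3959 to 4662 lower genes. In U87, 93 of their values kept direction and side, 28 passed the threshold under an alternative and 5 reversed. Members, higher genes and lower genes called were 2, 321 and 618 with DESeq2, 3, 611 and 1252 with no filter on low counts, 4, 1951 and 2587 with all 10 libraries, and 3, 878 and 1282 by the study's threshold. limma on FPKM called 5 genes higher. Without each library the members called ranged from 0 to 8, higher genes from 29 to 5367 and lower genes from 9 to 5249. The 0 members came from leaving out an OE library (32 and 29 genes higher, 9 and 9 lower). Leaving out EV replicate 1 or 2, FOS became -0.068 or 0.97, FOSL2 -0.14 or 1.09 and JUNB 0.16 or -0.28 on the log2 scale. JUNB also became 0.17 under library size alone, which moved the median of all U87 genes from -0.06 to 0.17, and 0.16 with limma. NR4A3, which has no test, kept its direction under each alternative in both lines and moved by more than the spread between replicates in 3 in SNB19 and 4 in U87. On FPKM + 1 its log2 fold change was compressed to 0.44 in SNB19 and 0.68 in U87.

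With the replicate number as a block, the U87 fit called 1 member, 211 higher and 257 lower genes, the test of the difference between the lines 1 member, 332 and 366, and SNB19 9 members, 4194 and 4407. Same-numbered U87 libraries deviated in opposite directions (r = -0.282), and a crossed pairing, added after seeing the data, called 3 members, 506 and 646. With 2 libraries a group, deviations from the group mean mirror each other, so the crossed pairing had r = 0.282 by construction. These values cannot show which libraries were paired. In SNB19 same-numbered deviations had r of -0.0358 to 0.0834 and differently numbered ones -0.104 to 0.111. These values cannot show whether the SNB19 libraries were paired either.

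For the difference between the lines, leaving out each library gave 1 to 5 members, 501 to 5098 higher and 493 to 4936 lower genes. Between control cells, the main fit called 4858 genes higher and 4985 lower in SNB19. With controls alone in the fit these were 3455 and 3230. With limma they were 6423 and 3057, and the median log2 fold change of all genes was 0.21. JUNB became -0.14 without EV replicate 2 and 0.34 without EV replicate 1. Leaving out NC replicate 1, 2 or 3 gave 2 members called higher each time and 3, 4 and 3 called lower. Over the 17165 to 17205 genes tested, 4114 to 4271 were called higher and 4105 to 4207 lower. The cause of these changes was not tested. Counts of 4 to 66 limit NR4A3, and 2 libraries a group, 1 of them unlike the rest, limit U87.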
